A study of Mus musculus with 6 samples.

Results

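Mitochondrial ribosomal protein genes were compared between Tyr-H and Tyr-L cells. Both are subclones of B16, a mouse melanoma line, and they differ in the activity of tyrosinase, the enzyme that starts melanin synthesis from tyrosine. The members were all genes whose symbol was Mrpl or Mrps followed by a number and at most 1 letter, pseudogenes left out. The rule found 78 genes among the 20788 that were listed in at least 1 library, 49 Mrpl genes, named for the large subunit, and 29 Mrps genes, named for the small subunit. All 78 were listed in each of the 6 libraries, and all 78 passed the filter on low values.

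Polyadenylated RNA had been sequenced as 3 libraries of Tyr-H cells, labelled high tyrosinase activity, and 3 libraries of Tyr-L cells, labelled low. Both groups were of C57BL/6 origin, carried no added transgene or treatment in the labels, and grew in low-glucose DMEM with serum. The subclones had been collected as colonies from dilute plating, so a group may stand for 1 clone or a few, and whether its libraries came from separate cultures is not stated. The p-values below therefore measure the spread between libraries, which may be technical.

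The mitochondrial ribosome is built from RNAs encoded in mitochondrial DNA and from proteins encoded in the nucleus, made in the cytosol and imported. It translates the few mitochondrially encoded messages, all of which specify subunits of the oxidative phosphorylation complexes. In melanoma, as in other tumours, its genes are commonly grouped with those of oxidative phosphorylation, and many of their promoters hold binding motifs of NRF1, GABPA and YY1.

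Tyr, the gene that encodes tyrosinase, was read first as a check of the labels. It stood at 10.7, 9.52 and 9.80 FPKM (fragments per kilobase of transcript, normalized for the mapped fragments of the library) in Tyr-L replicates 1, 2 and 3. In Tyr-H cells it stood at 23.8, 20.6 and 19.7 FPKM, a log2 fold change of 1.08 ± 0.08 (SE; limma, adjusted p = 3.98e-06). The groups did not overlap, and the direction was that of the labels. All 7 melanocytic markers were expressed in both groups, but Tyr was the one that was higher in Tyr-H cells. The other 6 were lower, at log2 fold changes of -1.85 for Mitf, the master transcription factor of melanocytes, -0.73 for Pmel, -0.64 for Dct, -0.57 for Sox10, -0.24 for Mlana and -0.23 for Tyrp1, and Mlana and Tyrp1 did not pass under median ratio scaling. Ptprc, the pan-leukocyte marker, was not listed in any library and Pecam1 and Krt14 were below the filter. Cd68 averaged 3.62 FPKM in the Tyr-L group and 4.24 FPKM in the Tyr-H group, and Lyz2 and Col1a1 were below 1 FPKM in both. Col1a1, a collagen gene of fibroblasts, stood at 0.340, 0.344 and 0.296 FPKM in Tyr-L replicates 1 to 3 and at 0.579, 0.511 and 0.708 FPKM in Tyr-H replicates 1 to 3, a log2 fold change of 0.71 ± 0.21 (SE; limma, adjusted p = 0.0173) that did not pass without Tyr-L replicate 3 (0.65) or without Tyr-H replicate 3 (0.60). The part of these transcripts in the results below was not tested.

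Transcripts of mitochondrial DNA took 8.89 to 9.43% of the summed FPKM in Tyr-L libraries and 13.2 to 13.8% in Tyr-H libraries. The median log2 fold change over the 14336 tested genes was -0.15 (Tyr-H minus Tyr-L throughout), and it was -0.01 once libraries were scaled by the median ratio of their genes. The part of the mitochondrial share in this shift was not tested, and the direction of small differences given below depends on the scale.

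Promoter sequence was held by RefSeq (GRCm38.p6) for 69 of the 78 members, and 4 stretches are shown here because they belong to both reference genes of the family, Mrpl12 and Mrps15, and to 2 members, Mrpl57 and Mrps21, that carried the same kind of motif as Mrpl12 and differed in opposite directions. Each runs 5′ to 3′ on the gene's strand from 150 to 31 bases before the transcription start, and capitals mark the NRF1 motif, GCGC followed by A, any base and GCGC, read on either strand.
Mrpl12 (chr11:120484487-120484606, plus strand): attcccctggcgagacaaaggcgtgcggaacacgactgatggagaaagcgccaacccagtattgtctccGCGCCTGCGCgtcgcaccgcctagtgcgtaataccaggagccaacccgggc
Mrpl57 (chr14:57826089-57826208, plus strand): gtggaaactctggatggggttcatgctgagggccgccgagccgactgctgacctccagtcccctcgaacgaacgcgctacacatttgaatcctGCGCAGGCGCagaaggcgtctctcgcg
Mrps21 (chr3:95871545-95871664, minus strand): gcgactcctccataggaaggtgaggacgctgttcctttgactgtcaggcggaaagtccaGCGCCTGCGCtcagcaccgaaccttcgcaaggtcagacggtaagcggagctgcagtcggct
Mrps15 (chr4:126046778-126046897, plus strand): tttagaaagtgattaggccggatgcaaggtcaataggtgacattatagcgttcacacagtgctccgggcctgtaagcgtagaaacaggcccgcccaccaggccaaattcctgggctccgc
The motif began 81 bases before the start in Mrpl12, 57 in Mrpl57 and 91 in Mrps21. The Mrps15 stretch held none of the motifs searched.

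Mean levels of the family spanned 19.2-fold, with most members between 10 and 100 FPKM. Mean levels over the 6 libraries, per length, ran from 7.57 FPKM for Mrpl1 to 145 FPKM for Mrpl12, with a median of 35.1 FPKM, and 47 of 49 Mrpl genes and all 29 Mrps genes lay between 10 and 100 FPKM. After Mrpl12, a protein of the stalk that recruits translation factors, Mrpl30 (means of 95.1 FPKM for Tyr-L and 103 FPKM for Tyr-H) and Mrpl33 (101 and 92.7 FPKM), proteins of the large subunit, had the highest means. These neighbours in the order were close: Mrpl30 was above Mrpl33 in Tyr-H cells and below it in Tyr-L cells. Among Mrps genes the highest mean was that of Mrps23 (means of 67.1 FPKM for Tyr-L and 79.9 FPKM for Tyr-H), and the lowest was that of Mrps31 (12.5 and 14.2 FPKM). The median coefficient of variation between libraries of a group was 3.65% in Tyr-L cells and 4.05% in Tyr-H cells, and the median standard error of a member's log2 fold change was 0.05.

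Between Tyr-H and Tyr-L cells the family was split: some members rose, about as many fell, and no change was large. None of the 78 genes passed both thresholds, an adjusted p of at most 0.05 and a log2 fold change of at least 1 in size (limma, Benjamini-Hochberg over all tested genes), where 8.75% of all tested genes did. None of 78 cytosolic ribosomal protein genes or 75 nuclear oxidative phosphorylation genes did either. The median level was 35.1 FPKM for members and 7.43 FPKM for all tested genes. At adjusted p of at most 0.05 with no condition on the fold, 24 members were higher in Tyr-H cells (30.8%, against 17.9% of all tested genes), 20 were lower (25.6%, against 39.9%) and 34 did not pass. The groups did not overlap for 48 members (61.5%, against 64% of all tested genes). The median log2 fold change of the members was 0.04, and that of all tested genes -0.15.

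**Figure D1:**
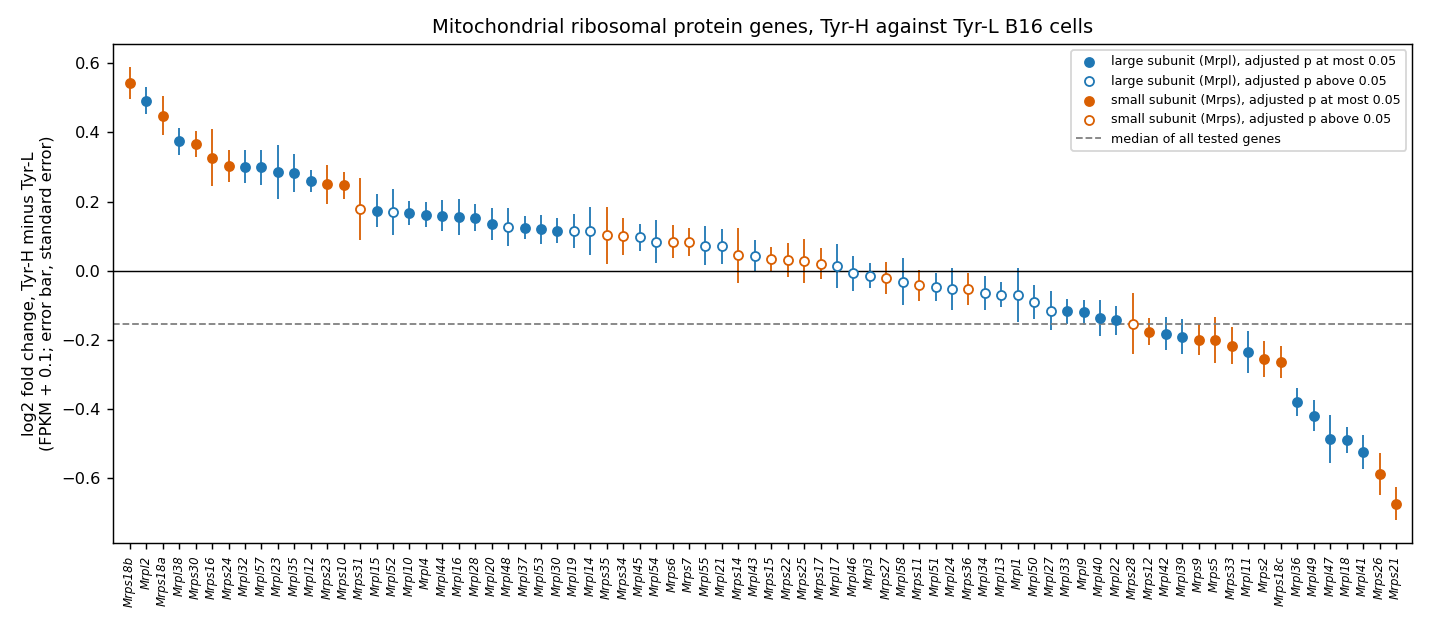
Log2 fold change of each of the 78 genes, Tyr-H minus Tyr-L, in order of size, with its standard error (vertical bar); filled points passed adjusted p of at most 0.05 and the dashed line is the median of all tested genes. Mrps18b at 0.54 and Mrps21 at -0.67 stand at the ends, and genes of both subunits are spread along the whole order.

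The balance of higher and lower members moved with the scale. With median ratio scaling 47 members were higher and 7 lower, where 27.9% of all genes tested in that fit were higher and 27% lower. With each library scaled to the same total, 14 were higher and 27 lower, where 12% of all genes tested in that fit were higher and 44% lower, and the median of the family turned to -0.05. With quantile normalization 41 were higher and 9 lower, where 26% of all tested genes were higher and 27.8% lower. A correction for transcript length turned the family's median to -0.02. The members' median lay above that of all tested genes in each of these fits, by 0.19 on the deposited scale, 0.20 under both scalings, 0.16 with quantile normalization and 0.14 after the length correction, and 62 of the 78 members lay above the median of all tested genes on the deposited scale. Across the 19 fits (the deposited scale and 18 alternatives) 13 members passed as higher every time and 7 passed as lower every time. The same counts were not made over all tested genes, so they have no background to be read against.

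**Figure D2:**
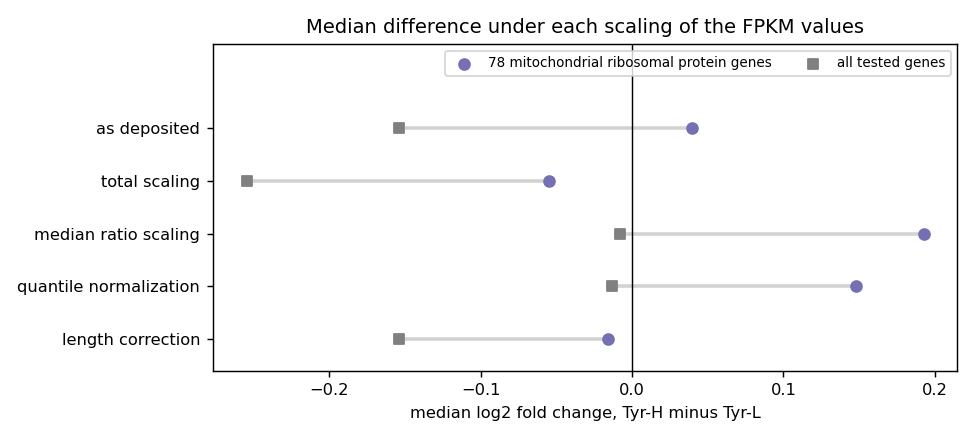
Median log2 fold change, Tyr-H minus Tyr-L, of the 78 genes (circles) and of all tested genes (squares) on the deposited scale and under 4 rescalings. The family's median runs from -0.05 to 0.19 and lies to the right of that of all genes in each row.

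Mrps18b, Mrps18a and Mrps18c are the 3 vertebrate copies of the bacterial S18 protein, and they did not move together. Mrps18b had the largest rise of the family. It stood at 43.1, 45.9 and 42.0 FPKM in Tyr-L replicates 1 to 3 and at 60.5, 64.0 and 66.4 FPKM in the Tyr-H libraries, a log2 fold change of 0.54 ± 0.05 (SE; limma, adjusted p = 1.34e-05). All 3 Tyr-H libraries were above all 3 Tyr-L libraries. Mrps18a, whose protein sits in the large subunit despite its name, went from 22.6, 24.6 and 23.9 FPKM to 30.2, 32.4 and 34.7 FPKM, a log2 fold change of 0.45 ± 0.06. Mrps18c, the copy closest to the bacterial protein in place, went the other way, from 29.0, 26.4 and 27.3 FPKM to 22.3, 23.3 and 23.2 FPKM, a log2 fold change of -0.26 ± 0.05 that did not pass under median ratio scaling. In Tyr-L cells Mrps18c lay above Mrps18a, and in Tyr-H cells Mrps18a lay above Mrps18c, with no overlap between these copies in either group.

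Among large subunit proteins, Mrpl2, a core protein next to the peptidyl transferase centre, had the largest rise. Its values were 28.9, 29.6 and 28.9 FPKM in Tyr-L libraries and 39.6, 41.5 and 42.2 FPKM in Tyr-H libraries, a log2 fold change of 0.49 ± 0.04 (limma, adjusted p = 7.28e-06). The Tyr-L libraries were within 1 FPKM of each other and well below the Tyr-H libraries. Mrpl38, a mitochondria-specific protein of the central protuberance, rose from a mean of 40.1 ± 1.17 to 51.9 ± 1.81 FPKM (SD, n = 3), a log2 fold change of 0.37. Mrpl32 (0.30), which is cut by a mitochondrial protease before it joins the subunit, Mrpl57 (0.30), Mrpl23 (0.29) and Mrpl35 (0.28) rose by like amounts. Mrpl23 lies at the exit of the protein tunnel, and its 3 Tyr-H libraries were spread from 35.3 to 45.4 FPKM. Without Tyr-H replicate 3 its log2 fold change was 0.185, and it did not pass without the variance trend. Mrps30, named for the small subunit but found in the large one, rose from 33.4 ± 0.80 to 43.1 ± 1.07 FPKM, a log2 fold change of 0.37.

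Mrpl12 stood at 132, 135 and 129 FPKM in Tyr-L libraries and at 161, 156 and 157 FPKM in Tyr-H libraries. No Tyr-L library reached the lowest Tyr-H library, and the log2 fold change was 0.26 ± 0.03 (limma, adjusted p = 0.000102). Mrps15, the other reference gene and an early-binding protein of the small subunit, stood at 38.0, 36.5 and 37.4 FPKM against 37.9, 38.0 and 38.6 FPKM, and these libraries overlapped. Its log2 fold change was 0.03 ± 0.04 and did not pass (limma, adjusted p = 0.414).

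In the small subunit, apart from the S18 copies and Mrps30, the rises were those of Mrps16 (0.33), Mrps24 (0.30), Mrps23 (0.25) and Mrps10 (0.25). Mrps16 was the least even of these, at 29.2, 32.3 and 25.2 FPKM in Tyr-L libraries and 35.8, 34.3 and 38.3 FPKM in Tyr-H libraries. Mrps24, the counterpart of the bacterial S3 protein at the entry of the message, shares exon sequence with Urgcp on the same strand, so its reads could not be kept apart with certainty.

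Mrps21, the counterpart of bacterial S21, had the largest fall. It stood at 82.4, 75.9 and 74.2 FPKM in Tyr-L replicates 1 to 3 and at 46.6, 48.8 and 50.3 FPKM in the Tyr-H libraries, a log2 fold change of -0.67 ± 0.05 (limma, adjusted p = 4.05e-06). It had been the highest of all Mrps genes in Tyr-L cells. Mrps26, a mitochondria-specific protein, went from 23.5, 20.5 and 21.6 FPKM to 14.0, 15.4 and 14.1 FPKM, a log2 fold change of -0.59 ± 0.06 (limma, adjusted p = 4.16e-05). In neither gene did the groups overlap. After these and Mrps18c, the Mrps genes that fell most were Mrps2 (-0.25), Mrps33 (-0.22) and Mrps5 (-0.20), none of which passed under median ratio scaling.

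In the large subunit the falls were led by Mrpl41, which stood at 26.6, 26.0 and 28.0 FPKM in Tyr-L libraries and at 19.0, 17.7 and 19.3 FPKM in Tyr-H libraries. Its log2 fold change was -0.52 ± 0.05 (limma, adjusted p = 2.24e-05). Mrpl18, of a protein family that binds a small ribosomal RNA in bacteria, went from 56.7, 57.8 and 54.5 FPKM to 40.4, 39.2 and 40.7 FPKM, a log2 fold change of -0.49 ± 0.04. Mrpl47 (-0.49), beside the tunnel exit, Mrpl49 (-0.42) and Mrpl36 (-0.38) followed, and their groups did not overlap either. Mrpl18 overlaps exons of Tcp1, and Mrpl47 those of Actl6a and Ndufb5, on the opposite strand, and the strand setting of the counting is not given in the sources used here. Over the whole family 42 genes overlapped another annotated gene and 33 did so within exons, while 36 overlapped none. Of these 36, 14 were higher (38.9%, against 17.9% of all tested genes) and 10 lower (27.8%, against 39.9%), with a median of 0.08.

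**Figure D3:**
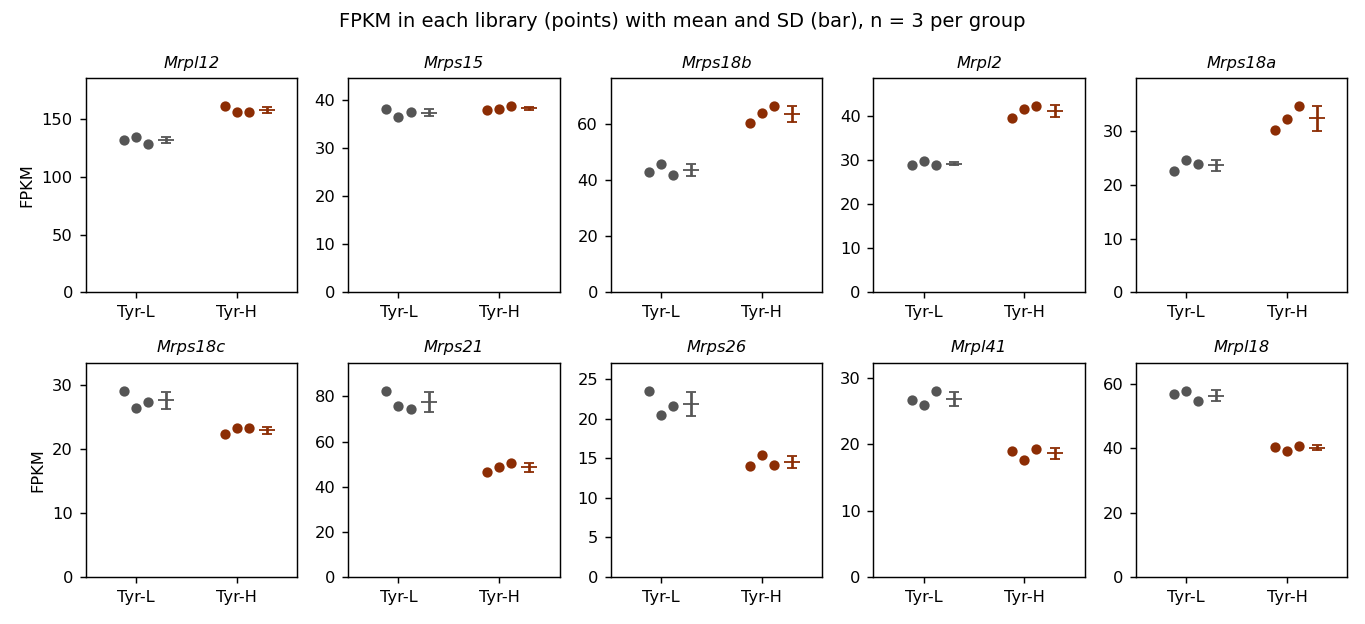
FPKM of 10 genes in each library (points) with the mean and SD of the 3 libraries of each group (bar). The groups are apart for every gene shown except Mrps15, with Tyr-H above for Mrpl12, Mrps18b, Mrpl2 and Mrps18a and below for Mrps18c, Mrps21, Mrps26, Mrpl41 and Mrpl18.

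Genes of the large and small subunits were interspersed along the order. Of 49 Mrpl genes, 17 were higher (34.7%, against 17.9% of all tested genes), 12 lower (24.5%, against 39.9%) and 20 did not pass, with a median log2 fold change of 0.07. Of 29 Mrps genes, 7 were higher (24.1%), 8 lower (27.6%) and 14 did not pass, with a median of 0.03. The difference of the medians was 0.04, which fell to 0.000758 without Tyr-H replicate 3 and turned to -0.04 after a correction for transcript length, and no test was run on it because genes are not replicates. Placing Mrps30 and Mrps18a in the large subunit, where their proteins sit, and leaving out Mrps36, whose protein belongs to a metabolic enzyme complex, gave a difference of 0.04. So placed, 19 of 51 large subunit genes were higher (37.3%) and 12 lower (23.5%). Of 26 small subunit genes 5 were higher (19.2%) and 8 lower (30.8%).

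The 49 Mrpl genes summed to 1976 ± 28.0 FPKM per Tyr-L library and 2024 ± 44.0 FPKM per Tyr-H library (SD, n = 3), and the 29 Mrps genes to 1019 ± 17.3 and 1035 ± 24.3 FPKM. The ratio of the sums was 1.92, 1.96 and 1.94 in the Tyr-L libraries and 1.97, 1.94 and 1.95 in the Tyr-H libraries, which overlapped. With genes placed by structure it was 2.17, 2.22 and 2.20 in Tyr-L libraries and 2.29, 2.26 and 2.27 in Tyr-H libraries, and these did not overlap. The median log2 level of Mrpl genes exceeded that of Mrps genes, taken by symbol, by 0.06, 0.06 and 0.06 in the Tyr-L libraries and by 0.11, 0.16 and 0.13 in the Tyr-H libraries, which did not overlap either. An exact permutation test of 3 against 3 libraries cannot go below p = 0.1. Together the family took 0.659 to 0.671% of the summed FPKM of a Tyr-L library and 0.631 to 0.640% of that of a Tyr-H library.

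**Figure D4:**
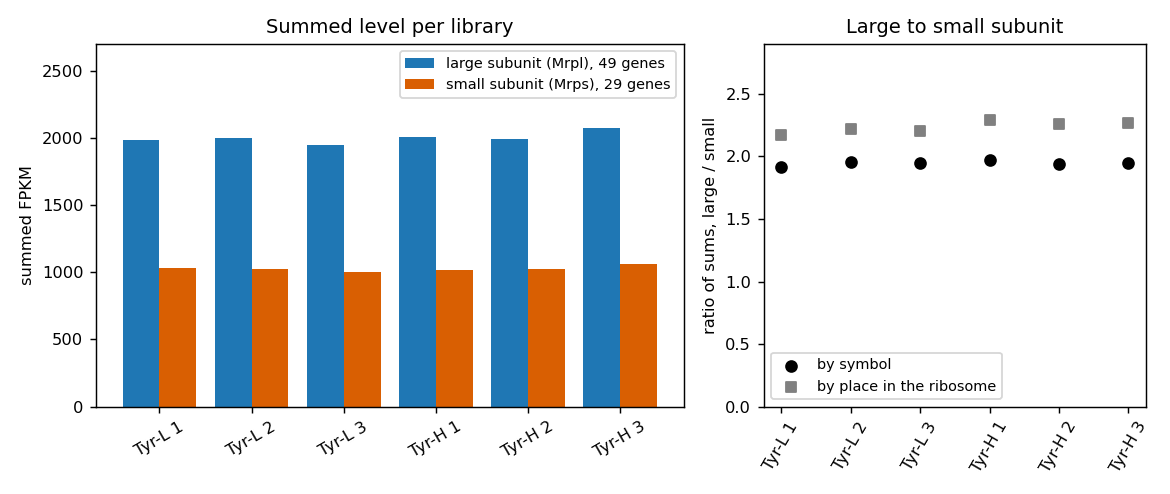
Left, summed FPKM of the 49 Mrpl and 29 Mrps genes in each library. Right, the ratio of the sums with subunits taken from the symbol (circles) or from the place of the protein in the ribosome (squares); the circles lie between 1.92 and 1.97 in all 6 libraries.

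By role within the large subunit, 3 of the 5 stalk genes were higher and 1 lower, where 17.9% of all tested genes were higher and 39.9% lower. Beside Mrpl12 these were Mrpl10 (0.17), the base of the stalk, and Mrpl53 (0.12, but -0.02 after the length correction). Mrpl10 did not pass under total scaling (0.07) or with the length correction and replicate block together, and Mrpl53 did not pass under total scaling, without the filter, without the variance trend or in 4 of the 6 fits that left out 1 library. Mrpl53 also shares most of its exon sequence with Gm42688 on the same strand, so its reads could not be kept apart with certainty. Mrpl11 fell by 0.23 on the log2 scale, from a mean of 11.1 ± 0.62 to 9.38 ± 0.34 FPKM, and did not pass under median ratio scaling. Mrpl54 stood at 29.8, 32.5 and 27.7 FPKM in Tyr-L libraries and 32.7, 29.8 and 32.9 FPKM in Tyr-H libraries, and it did not pass. Of 6 genes around the tunnel exit 1 was higher (16.7%) and 2 lower (33.3%), near the shares of all tested genes, and of 5 genes listed for the central protuberance 1 was higher and 1 lower. The 5 were Mrpl38, Mrpl40, Mrpl46, Mrpl48 and Mrpl58, a list that need not be complete. Mrpl18 (-0.49) was not in it. Mrpl58, a protuberance protein that also releases stalled peptides, stood at 28.0 ± 2.09 and 27.4 ± 2.12 FPKM and did not pass. The 46 members with a bacterial counterpart had a median log2 fold change of 0.03, with 15 higher (32.6%) and 13 lower (28.3%), and the 32 without one a median of 0.06, with 9 higher (28.1%) and 7 lower (21.9%). Mrps18a and Mrps18b stand among the 32 in this count. With these copies of S18 moved to the first group, a choice made after the values were seen, 17 of 48 were higher and 13 lower in it, against 7 of 30 higher and 7 lower in the second, with medians of 0.04 in both.

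Of the 16 chromosomes with 2 or more members, 3 held members on one side of 0 alone (chromosomes 2, 3 and 14), and on the others the members were mixed. All 4 members on chromosome 2 were lower (Mrps26, Mrpl41, Mrps2 and Mrps5), and all 5 on chromosome 3 were below 0, of which 3 passed, Mrps21, Mrpl47 and Mrpl9, the last with a log2 fold change of -0.12 that turned to 0.03 under median ratio scaling. The other expressed protein-coding genes had a median log2 fold change of -0.39 on chromosome 2, over 857 genes, and -0.37 on chromosome 3, over 515 genes, and 72.3% and 69.5% of them were lower. On the other chromosomes with members this share ran from 29% (chromosome 14) to 57.4% (chromosome 13). It was 39.9% over all tested genes, a wider set that also held other gene types and lower levels. On chromosome 17, 5 of 8 members were higher, among them Mrps18b, Mrpl2, Mrps18a and Mrps10, while Mrpl18 was lower, and the median of the 484 other genes was -0.05, with 25.6% of them higher and 34.7% lower. All 3 members on chromosome 14 were above 0, and Mrps16 and Mrpl57 passed, where 33.8% of the 355 other genes were higher.

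Each member was also set beside the protein-coding genes whose start lay within 2 Mb of its own. Across the 78 members the log2 fold change and the median of these neighbours were correlated (Pearson's r = 0.48, Spearman's rho = 0.49), as a description, since all points share the same 6 libraries and some share neighbours. For Mrps21 the 59 neighbours had a median of -0.37, for Mrps26 the 42 neighbours -0.35, and for Mrpl47 the 14 neighbours -0.58. Other members that fell had neighbours nearer 0, at -0.01 over 102 genes for Mrpl49 and -0.14 over 16 genes for Mrpl36. The neighbours of Mrps18b and Mrpl2 had medians of 0.00 and 0.04, below these genes. Of the 78 members 58 lay above the median of their neighbours.

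**Figure D5:**
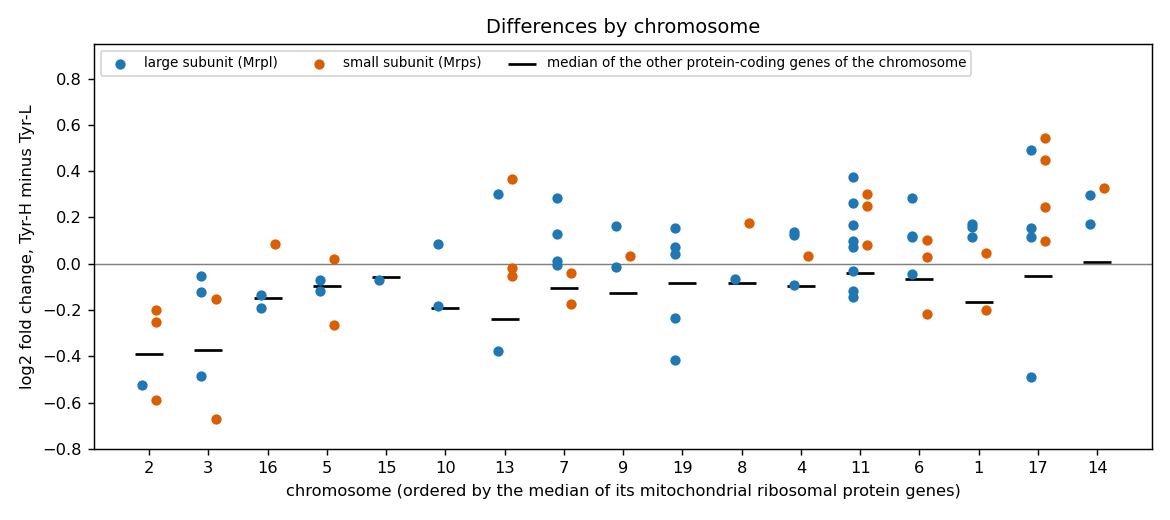
Log2 fold change of each gene by chromosome, coloured by subunit, with the median of the other protein-coding genes of that chromosome (black bar). All points on chromosomes 2 and 3 lie below 0, where the bars stand at -0.39 and -0.37.

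Many members shared their start region with another gene. A protein-coding gene on the opposite strand began within 1000 bp of 33 members (42.3%), against 17.2% of tested protein-coding genes. Among the 33 neighbours in such pairs 6 were higher in Tyr-H cells (18.2%) and 12 lower (36.4%), shares near those of all tested genes (17.9% and 39.9%). In 10 pairs both genes passed, 6 in the same direction and 4 in opposite ones. The same was not counted for such pairs among all tested protein-coding genes, so these numbers have no background to be read against. The counts for the members depended on the scale: with median ratio scaling, a comparison added after the values were seen, both genes passed in 14 pairs, 6 in the same direction and 8 in opposite ones, and of the 6 same-direction pairs on the deposited scale Mrpl2 with Klc4 and Mrpl44 with Wdfy1 passed there too. Klc4, at a mean of 1.89 FPKM, did not pass without the filter, under total scaling or with the length correction and replicate block together. It also did not pass without Tyr-L replicate 2, Tyr-H replicate 2 or Tyr-H replicate 3. Mrpl44 did not pass in every fit either. The opposite pairs on the deposited scale were Mrps18b with Ppp1r10 (-0.45), Mrpl32 with Psma2 (-0.17, which did not pass under median ratio scaling), Mrpl57 with Ska3 (-0.54), and Mrpl49 with Fau (0.37), whose starts lay between 45 and 75 bp apart.

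Of the promoters, 250 bases before to 50 after the start, 43 of 69 held at least 1 of 3 motifs, searched on both strands, and 26 held none. The NRF1 motif spelled out above was in 13 of 69 (18.8%, against 12% of promoters of tested protein-coding genes and 5.19% of all), and of these 13 members 5 were higher and 5 lower, where 17.9% of all tested genes were higher and 39.9% lower. The ETS motif CCGGAAG, which GABPA can bind, was in 26 (37.7%, against 20.8% and 9.93%), of which 6 were higher and 8 lower. The YY1 motif AAGATGGC was in 12 (17.4%, against 5.4% and 3.19%), of which 5 were higher and 4 lower. Mrps18a, Mrps18b and Mrps18c all held the ETS motif. A match describes letters only. No promoter sequence was matched for Mrpl4, Mrpl13, Mrpl15, Mrpl19, Mrpl38, Mrpl54, Mrps28, Mrps34 and Mrps35.

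Of 12 listed regulators of mitochondrial biogenesis, 8 were lower in Tyr-H cells (66.7%, against 39.9% of all tested genes) and 1 higher (8.33%, against 17.9%), with a median log2 fold change of -0.32, and with median ratio scaling 6 were lower and 2 higher, where 27% of all genes tested were lower and 27.9% higher. Nrf1 (-0.33), Gabpa (-0.36) and Yy1 (-0.43), which encode the factors of the 3 motifs, fell, as did Tfb2m (-0.49) and Polrmt (-0.27), which transcribe mitochondrial DNA, although Polrmt did not pass under median ratio scaling. Ppargc1b, a coactivator, was lowest of the list at -0.86 (2.94 ± 0.12 FPKM for Tyr-L and 1.59 ± 0.22 FPKM for Tyr-H), and Esrra, a nuclear receptor, was the one that rose (0.27).

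The rest of the mitochondrial translation apparatus was mixed as well. Of 5 ribosomal subunits without an Mrp symbol, Chchd1 rose from 35.0 ± 0.29 to 50.1 ± 1.64 FPKM (log2 fold change 0.52), Aurkaip1 rose by 0.23, Ptcd3 fell by 0.21 and the other two did not pass. Of 16 genes listed as translation factors 3 were higher (18.8%), led by Mtif3 (0.29), an initiation factor, and 6 lower (37.5%), led by Mtrf1l (-0.61), a release factor, with Gfm1, an elongation factor, at -0.35. Both shares were near those of all tested genes, 17.9% and 39.9%. The list also held Oxa1l, which did not pass, Lrpprc (0.18, higher) and Slirp (-0.22, lower), which are not translation factors in the strict sense. Of 25 assembly factors 6 were higher (24%), led by Mrm1 (0.58), which methylates the large ribosomal RNA, 6 lower (24%), led by Trub2 (-0.46), and 13 did not pass. None of these 46 genes passed both thresholds. With median ratio scaling the split was 3 higher and none lower for the subunits, 7 and 2 for the translation factor list, and 12 and 1 for the assembly factors, where 27.9% of all genes tested in that fit were higher and 27% lower.

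The ribosomal RNAs themselves are read with caution from libraries selected for poly(A) tails. mt-Rnr1, of the small subunit, averaged 334 ± 56.3 FPKM for Tyr-L and 859 ± 66.2 FPKM for Tyr-H (log2 fold change 1.37), and mt-Rnr2, of the large subunit, 453 ± 38.4 and 651 ± 22.9 FPKM (0.53). All 13 mitochondrially encoded messages had a log2 fold change above 0, with a median of 0.44, and 11 passed as higher (84.6%, against 17.9% of all tested genes). For comparison, the median was 0.17 over 75 nuclear genes of oxidative phosphorylation, of which 40 were higher (53.3%) and 9 lower (12%, against 39.9% of all tested genes), and 0.20 over 78 cytosolic ribosomal protein genes, of which 53 were higher (67.9%) and 1 lower (1.28%). The differences between these groups and the mitochondrial ribosomal proteins were not tested.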

How the data were processed

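RNA of 3 Tyr-H and 3 Tyr-L libraries had been prepared by the authors with a poly(A) kit and sequenced as pairs of 150 bp reads. The submitters' processing notes name Trimmomatic, HISAT2 and the build GRCm38.p6, and the quantifier is not given in the sources used here. The authors deposited FPKM values per gene, normalized for length and depth. A gene unlisted in a library was taken as 0. Depth is not stated, and steps of low values gave approximately 18600000 to 21100000 fragments per library, with an estimated 283 fragments for the least covered member in a library (Mrpl41). Values were not whole multiples of a step, so no count test was run.

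Values were tested as log2(FPKM + 0.1) with limma 3.58.1 in R 4.3.3, with a variance trend, two-sided, and Benjamini-Hochberg adjustment over the 14336 genes whose mean reached 0.1 FPKM. A log2 fold change on this scale understates the change of low genes. In simulated libraries with 200 changed genes among 14231, 83.5% of those changed by 1.5 on the log2 scale and 37% of those changed by 0.4 were recovered. In the data 2570 genes passed as higher and 5722 as lower. Members also had smaller standard errors than all tested genes (medians of 0.05 and 0.08). The simulated shares are therefore not the chance that a changed member passed. Coordinates and overlaps came from GENCODE M21.

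Members and lists were chosen with earlier results of these data known, and the neighbour, shared start and motif descriptions after the values were seen. Named genes were Mrpl12, Mrps15, the S18 copies, Mrps30, Mrps36, Mrpl58, the 6 highest and 6 lowest changes among members that passed and the 3 highest and 3 lowest levels in each subunit, and the ends of each list. Mrpl9, Mrpl10, Mrpl53, Mrpl54, Mrps10 and the other genes named were chosen after their values were seen. Some list symbols (Mrm3, Rcc1l, Mtres1) were matched by synonym. Alternatives were other pseudocounts, filters, scalings and variance models, a length correction, a replicate block and each library left out.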

Additional observations from a re-analysis of the deposited data

How the results depend on the processing

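With total scaling 14 members were higher and 27 lower, and the members' median was -0.055. With median ratio scaling 47 were higher and 7 lower, with a median of 0.193. With quantile normalization 41 were higher and 9 lower, with a median of 0.148. Of all genes tested in these fits, in that order, 12%, 27.9% and 26% were higher and 44%, 27% and 27.8% lower. The length correction, with or without the replicate block, gave a members' median of -0.016 and a large minus small subunit difference of -0.041. Among members that overlap no other gene, 14 were higher (38.9%, against 17.9% of all tested genes) and 10 lower (27.8%, against 39.9%), with a median of 0.078. Fewer genes were counted, and the cause of the higher median was not tested. Leaving out each library in turn gave 20 to 25 higher, 16 to 19 lower, members' medians of 0.017 to 0.064 and subunit differences of 0.000758 to 0.033. Shares over all tested genes were not taken for these fits. No member passed both thresholds under any alternative, and at an unadjusted p under 0.05 that count was also 0.

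Among single genes the direction turned for genes near 0. Median ratio scaling gave Mrpl1 0.081, Mrpl33 0.036, Mrpl58 0.122, Mrpl9 0.033 and Mrps36 0.101, and quantile normalization gave Mrpl1 0.102, Mrpl58 0.081 and Mrps36 0.044. Total scaling gave Mrpl54 -0.0097 and Mrps15 -0.059, and the length correction, with or without the block, gave Mrpl53 -0.017, Mrpl54 -0.064 and Mrps15 -0.0702. Mrpl58 ranged from -0.093 to 0.022 as each library was left out. The cause was not tested.

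Same-numbered libraries did not deviate together (correlations 0.022, 0.013 and -0.083). Whether the numbers mark a shared culture or batch is not stated, and correlations over 3 libraries per group cannot show that they do not. The fit with the replicate block gave 24 higher and 19 lower and changed no call of a named gene. With 3 libraries per group, differences near the libraries' spread could not be resolved.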
